A study of Mus musculus with 2 samples.

Results

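The E protein and Id network was described through the accessible chromatin of mouse regulatory T cells at 6 genes, the 3 E protein genes Tcf3, Tcf4 and Tcf12 and the 3 Id genes Id1, Id2 and Id3. A peak belonged to a gene when its summit lay in the gene body or within 20 kb of either side, which gave 24 of the 34610 peaks of the stricter list and 37 of the 58871 peaks of the longer one. The rule used the position of the summit. An interval with more than 1 summit was counted once and placed at its summit of highest signal. Of the 24, 12 had more than 1 summit, against 56.3% of all peaks of the stricter list.

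The study measured open chromatin by ATAC-seq, in which a transposase cuts and tags accessible DNA. Its 2 libraries were technical replicates 1 and 2 of a single biological replicate, regulatory T cells of a male mouse aged 4 months carrying Foxp3CreERT2 and Rosa26YFP. Foxp3CreERT2 puts a tamoxifen-dependent Cre under Foxp3, and Rosa26YFP is a reporter allele; the labels name no treatment, and they trace the cells to hematopoietic cells of the bone marrow. There was 1 group, no control and no second condition, and both libraries were pooled in every peak list, so no value below has an SD between samples and no test was possible.

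E proteins are basic helix-loop-helix transcription factors that bind the E-box, CANNTG, as dimers. Tcf3 encodes E2A (the splice forms E12 and E47), Tcf4 encodes E2-2 and Tcf12 encodes HEB; Tcf3 and Tcf4 are distinct from the TCF/LEF factors Tcf7l1 and Tcf7l2, which have been called by the same names. Id proteins keep the helix-loop-helix but lack the basic region that contacts DNA, so they hold E proteins off their sites. In T cells, receptor signalling induces Id3 through Egr factors, and Id2 and Id3 are known for their part in keeping regulatory T cells in number and identity.

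The sequences under the summits are shown first, because the E-box is both the site that E proteins bind and a motif found in these genes' own regions. Each is 200 bases centred on a summit, less annotated UTR bases, on build GRCm38.p6 (the assembly of mm10), read 5′ to 3′ on the strand of the gene, with every E-box in capitals. No sequence was taken for Tcf4, which was left out by its chromosome. For the other genes the set holds the promoter peak nearest the 5′ end and the highest-signal peak outside promoters where enough bases free of UTR were left.
Tcf3 promoter, chr10:80433967-80434166, minus strand: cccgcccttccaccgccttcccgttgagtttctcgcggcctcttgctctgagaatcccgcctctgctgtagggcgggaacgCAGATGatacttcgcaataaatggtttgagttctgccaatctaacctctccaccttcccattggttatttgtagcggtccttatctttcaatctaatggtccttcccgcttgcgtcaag
Tcf3 upstream peak, chr10:80446308-80446507, minus strand: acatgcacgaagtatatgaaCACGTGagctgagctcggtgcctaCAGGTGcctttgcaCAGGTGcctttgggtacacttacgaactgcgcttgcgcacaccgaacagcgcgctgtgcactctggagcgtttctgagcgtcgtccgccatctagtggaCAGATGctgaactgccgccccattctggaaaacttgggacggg
Tcf12 intron 3 peak, chr9:72097186-72097385, minus strand: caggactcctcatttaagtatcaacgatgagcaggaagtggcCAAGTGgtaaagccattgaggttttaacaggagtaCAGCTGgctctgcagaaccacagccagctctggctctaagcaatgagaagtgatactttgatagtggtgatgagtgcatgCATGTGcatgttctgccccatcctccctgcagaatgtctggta
Id1 promoter, chr2:152736089-152736250, plus strand: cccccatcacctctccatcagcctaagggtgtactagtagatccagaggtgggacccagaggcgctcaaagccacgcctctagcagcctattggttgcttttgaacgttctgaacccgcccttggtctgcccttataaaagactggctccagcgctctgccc
Id1 upstream peak, chr2:152735121-152735320, plus strand: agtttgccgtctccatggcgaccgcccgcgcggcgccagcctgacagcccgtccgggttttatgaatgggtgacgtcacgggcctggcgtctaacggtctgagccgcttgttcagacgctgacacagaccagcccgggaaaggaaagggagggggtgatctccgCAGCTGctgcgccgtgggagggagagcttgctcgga
Id2 downstream peak, chr12:25092344-25092543, minus strand: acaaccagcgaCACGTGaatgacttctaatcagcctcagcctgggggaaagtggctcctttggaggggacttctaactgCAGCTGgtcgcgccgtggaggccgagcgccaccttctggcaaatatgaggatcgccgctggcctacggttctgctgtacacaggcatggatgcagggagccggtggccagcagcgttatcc
Id3 downstream peak, chr4:136160227-136160426, plus strand: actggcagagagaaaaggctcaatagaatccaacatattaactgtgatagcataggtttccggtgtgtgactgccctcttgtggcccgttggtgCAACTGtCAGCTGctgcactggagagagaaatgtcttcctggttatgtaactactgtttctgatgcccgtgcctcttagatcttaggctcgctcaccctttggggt

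Among these 7 windows, the 4 of Tcf12 intron 3, Id1 upstream, Id2 downstream and Id3 downstream, held the palindromic E-box CAGCTG. The Tcf3 upstream window held 4 E-boxes of other kinds, and the Id1 promoter window held none. The same CAGCTG also lay in 3 further peaks of the Id loci, shown as 40 bases with CAGCTG in capitals; these stretches were picked after the motif counts were known.
Id2 upstream peak, chr12:25098954-25098993, minus strand: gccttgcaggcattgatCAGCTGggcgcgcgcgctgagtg
Id3 peak in the gene body, chr4:136144745-136144784, plus strand: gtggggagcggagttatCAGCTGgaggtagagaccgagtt
Id3 far downstream peak, chr4:136163649-136163688, plus strand: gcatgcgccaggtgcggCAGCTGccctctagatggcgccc

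All 6 genes had an accessible promoter, defined as a peak that overlapped 1 kb on either side of an annotated start site of the gene. With the summit itself required in that window, all 6 still had one. For comparison, a promoter peak was found in the stricter list at 52.6% of the 21938 protein-coding genes and in the longer list at 57.7%; 48.6% had a peak at the 5′ end of the gene, and 69.8% had at least 1 peak in the locus. The genes differed in how strong and how numerous their peaks were. Tcf3 and Id2 had the strongest promoter peaks, Id3 had the most peaks for its length, and the 5 peaks of Tcf4 and 4 of Tcf12 were spread over long gene bodies. Below, signal is the authors' enrichment value for a peak, and −log10 p is the authors' measure of how far the peak rises above background; both describe the pool.

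Tcf3 encodes the E2A factors needed for early T and B cell development. It spans 24.1 kb (chr10:80409514-80433647, minus strand) and had 4 peaks in its locus. Its promoter peak (chr10:80433519-80434513) had a signal of 22.4, the highest of the 24, and a −log10 p of 629, above 89.1% of all peaks by signal and 95.1% by −log10 p. The summit lay 420 bp upstream of the 5′ end, and the peak covered 5 annotated start sites. None of the 4 peaks lay inside the gene body. An intergenic peak 12.8 kb upstream (chr10:80446084-80446687) had a signal of 17.3, the highest outside promoters in the 6 loci, with a −log10 p of 78.2. The other 2 peaks sat at start sites of neighbours: one 34 bp from that of Uqcr11, a subunit of respiratory complex III, with a signal of 18.4, and one 153 bp from that of Mbd3, a subunit of the NuRD complex, with a signal of 20.4 and a −log10 p of 795. Peaks at neighbours' promoters are counted in the locus by position and are not assigned to Tcf3.

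Tcf4 encodes E2-2, the E protein that directs plasmacytoid dendritic cells. It spans 346 kb (chr18:69343356-69689079, plus strand) with 58 annotated start sites, and had 5 peaks, all in the gene body. The first promoter peak (chr18:69344027-69344688) had a signal of 11.8 and a −log10 p of 225, with its summit 48 bp from a Tcf4 start site. A second, internal promoter peak lay 250 kb into the gene (chr18:69592735-69593812), with a signal of 15.6 and a −log10 p of 109, and coincided with 8 start sites. The highest-signal peak outside promoters was in intron 6 (chr18:69547876-69548274), with a signal of 16.6 and a −log10 p of 84.5. The lowest of the 5 was in intron 8 (chr18:69570812-69571611), with a signal of 9.0 and a −log10 p of 35.2. The longer list added 5 peaks with signals from 2.86 to 8.76.

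Tcf12 encodes HEB, which pairs with E2A in thymocytes. It spans 269 kb (chr9:71842688-72111871, minus strand) and had 4 peaks. Its 5′ promoter peak (chr9:72110675-72112360) was 1686 bp wide with 5 summits, a signal of 10.3 and a −log10 p of 107. An internal promoter peak 216 kb into the gene (chr9:71895985-71896244) had a signal of 12.8 and a −log10 p of 57.2. The highest-signal peak outside promoters was in intron 3 (chr9:72097048-72097469), with a signal of 10.5 and a −log10 p of 78.2. The lowest was also in intron 3, 72.1 kb from the 5′ end, with a signal of 9.05 and a −log10 p of 30.8. The longer list added 7 peaks with signals from 3.46 to 11.4.

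Id1 encodes an inhibitor induced by BMP signalling. It spans 1.16 kb (chr2:152736251-152737410, plus strand) and had 2 peaks. The promoter peak (chr2:152736038-152736698) had a signal of 10.4 and a −log10 p of 74.3. The other peak (chr2:152735088-152735501) had its summit 1.03 kb upstream, just outside the promoter window, with a signal of 8.40 and a −log10 p of 52.4; its window is the only 1 of the 24 with a cAMP response element, TGACGTCA, which 1.81% of all peaks held.

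Id2 encodes an inhibitor prominent in effector and innate lymphoid cells. It spans 3.34 kb (chr12:25093799-25097140, minus strand) and had 3 peaks. The promoter peak (chr12:25095782-25096564) had the highest −log10 p of the 24, 825, above 98.5% of all peaks, with a signal of 16.1, above 65.3%. Its summit lay 952 bp inside the annotated gene, 96 bp from the start site of a principal transcript. The peak did not reach the annotated 5′ end, where another principal transcript starts. The other 2 peaks were weak by signal: 4.19 at 4.70 kb downstream of the 5′ end (chr12:25092318-25092556) and 4.01 at 1785 bp upstream (chr12:25098820-25099041), the lowest of the 24. Their −log10 p values were 64.6 and 65.7.

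Id3 encodes the inhibitor induced by the T cell receptor. It spans 2.26 kb (chr4:136143497-136145755, plus strand) and had 6 peaks, the most of the 6 genes. The promoter peak (chr4:136143591-136144169) had a signal of 11.6 and a −log10 p of 280, with its summit in exon 1. The lowest was a second peak inside the gene, 192 bp from another Id3 start site (chr4:136144557-136144962), with a signal of 5.84 and a −log10 p of 89.4. The highest-signal peak outside promoters lay 16.8 kb downstream of the 5′ end (chr4:136160022-136160633), with a signal of 15.8 and a −log10 p of 89.1. The remaining 3, at 4.50 kb, 20.2 kb and −19.9 kb, had signals of 8.27, 11.1 and 9.06. The last of these lay just inside the 20 kb limit. The peaks at 16.8 kb and 20.2 kb were nearer to a start site of the neighbour E2f2, a cell cycle transcription factor, at 12067 and 8681 bp, than to one of Id3.

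**Figure D1:**
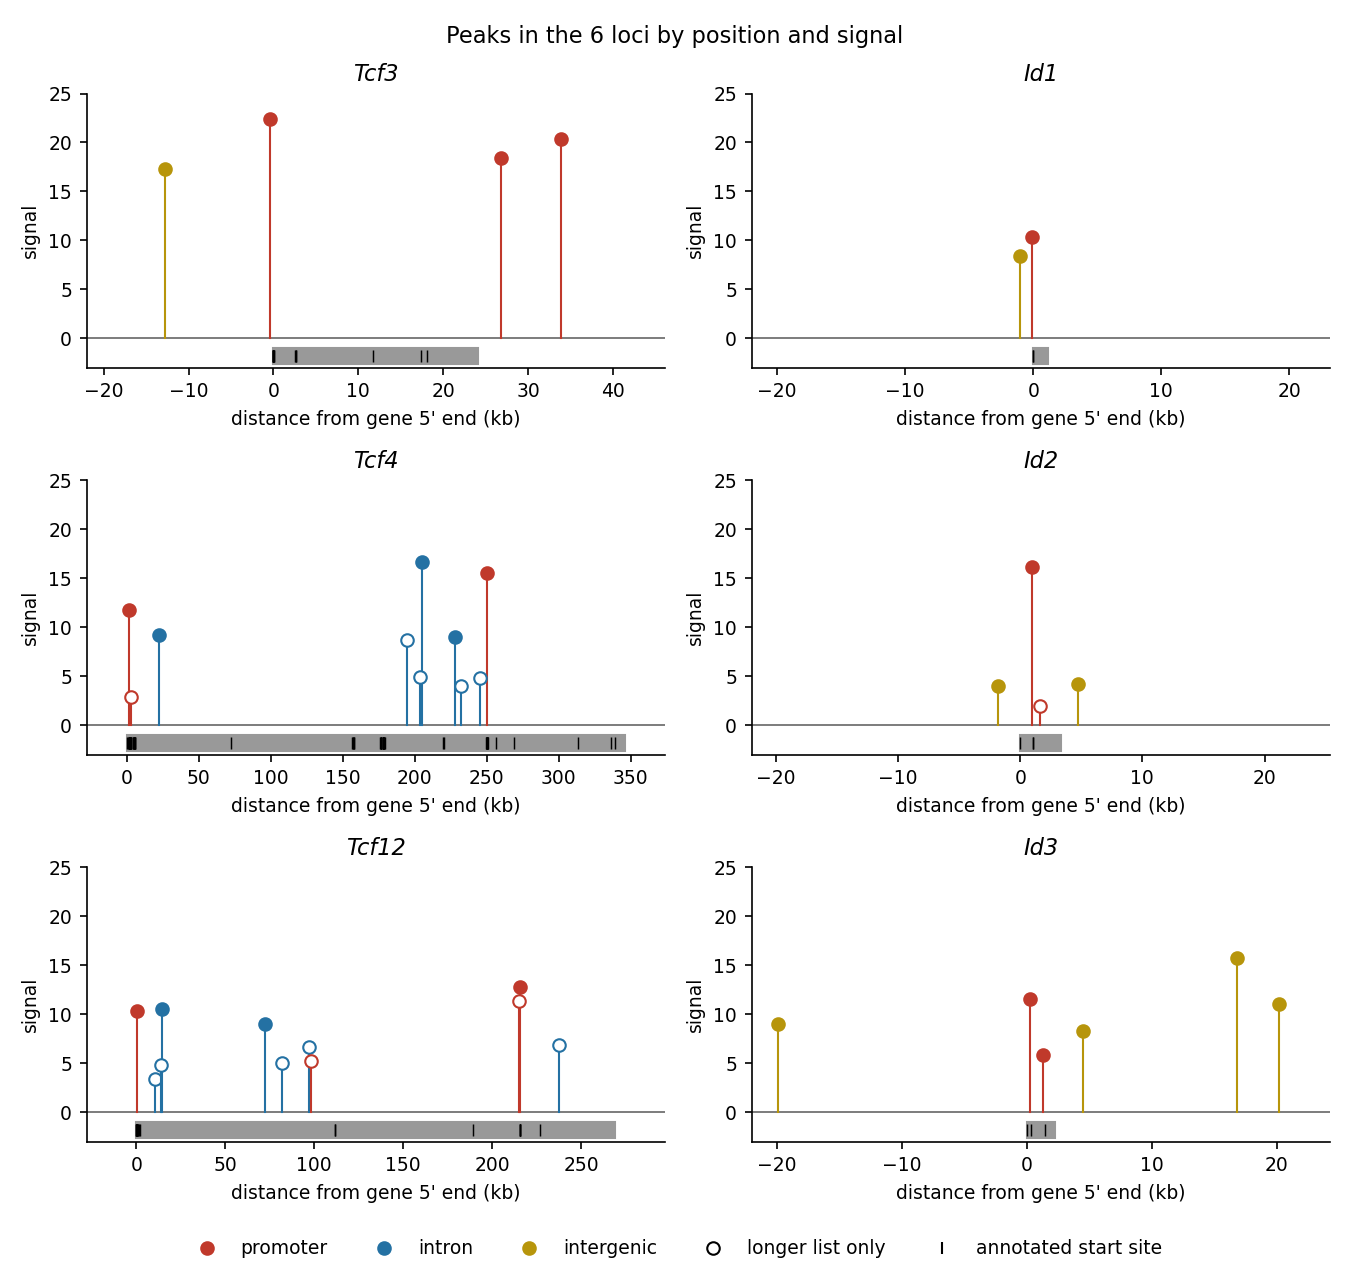
Signal of each peak (vertical axis, the authors' enrichment value) against the distance of its summit from the 5′ end of the gene in kb (horizontal axis), for 6 loci; filled points are in the stricter list, open points only in the longer list, grey bars are gene bodies and ticks are annotated start sites. Tcf3 has no peak in its gene body and its 2 rightmost peaks are at the start sites of Uqcr11 and Mbd3, while the peaks of Tcf4 and Tcf12 lie inside the genes.

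Locus length differs widely, so counts were also set against length. Id3 had 14.2 peaks per 100 kb, a density reached by 1.39% of protein-coding genes. Id2 had 6.92, Tcf3 6.24 and Id1 4.86, reached by 15.9%, 19.8% and 27.2%. The value of Tcf3 counts the peaks at the promoters of Uqcr11 and Mbd3. Tcf4 and Tcf12 had 1.296 and 1.294, below the median gene's 2.34, but in gene bodies alone their densities were reached by 34.9% and 34.8% of genes. Among genes with loci of like length (within 25%), 5.54% had at least as many peaks as Id3, against 25% for Tcf3, 30.6% for Id2, 31.3% for Tcf4, 36.2% for Tcf12 and 42.5% for Id1; the median gene of like length to Tcf4 or Tcf12 had 2 peaks. In the longer list the density of Id3 was reached by 6.39% of genes, that of Tcf3 by 34.5% and that of Id1 by 42.8%, and 14.7% of genes of like length had at least as many peaks as Id3. These are descriptions of 1 pool, and Id3 was not chosen or tested for its density.

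The number of peaks rested on the stretch counted. Gene bodies alone held 12 peaks and stretches reaching 50 kb held 40. Between the neighbouring protein-coding genes, a stretch chosen after the data were seen, there were 74, of which 34 were around Id2 and 15 around Id3.

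**Figure D2:**
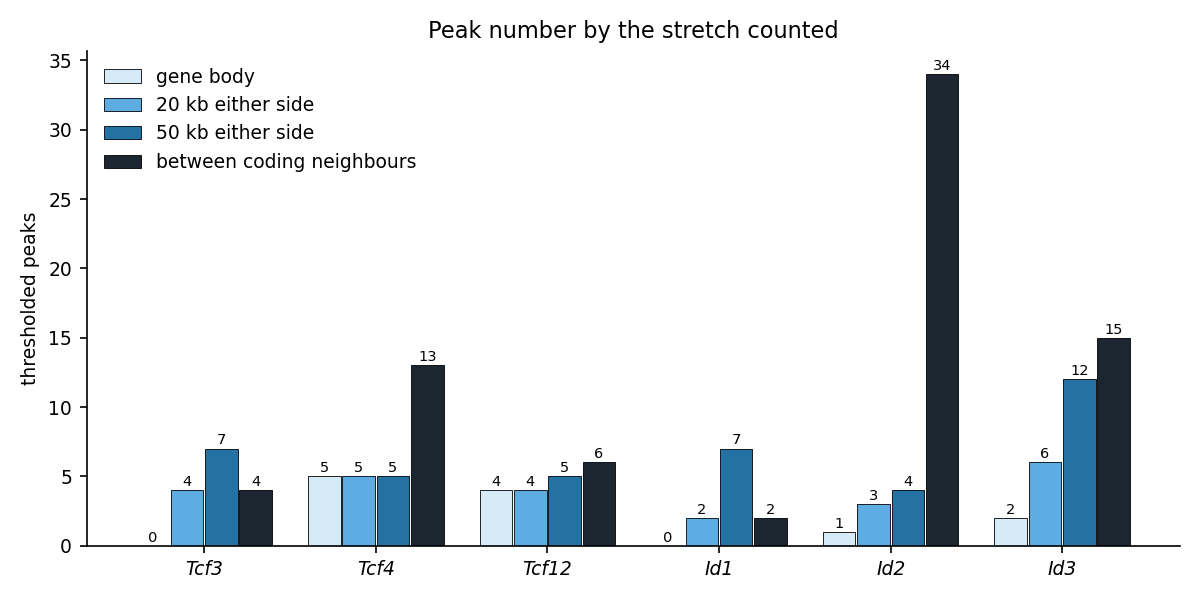
Number of stricter-list peaks (vertical axis) for each of 6 genes when counted in the gene body, with 20 kb or 50 kb either side, and between the neighbouring protein-coding genes. The count around Id2 goes from 3 with 20 kb to 34 between its neighbours, while Tcf3 and Id1 have more with 50 kb than between their neighbours.

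In the stricter list the median signal of the 24 peaks was 10.8, against 13.2 over all peaks, and 8 of the 24 lay above that overall median; the median −log10 p was 81.3 against 115, with 7 above. This placement depended on the list: the median peak of the 6 loci stood at percentile 35.6 of all peaks by signal in the stricter list and at percentile 52.7 of the longer list in that list. Promoter peaks had a median signal of 12.8 against 15.4 for all promoter peaks, and peaks outside promoters 9.06 against 12.1. The promoter peaks of the loci include those of the neighbours Uqcr11 and Mbd3, both above 15.4. The values ran from 4.01 to 22.4, and over all peaks from 1.495 to 64.7. Signal and −log10 p did not rank peaks alike. The Id2 promoter stood above 65.3% of all peaks by signal and 98.5% by −log10 p, the Id3 peak at 4.50 kb above 20.6% and 61.9%, and the Tcf3 upstream peak above 71.0% and 35.7%.

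**Figure D3:**
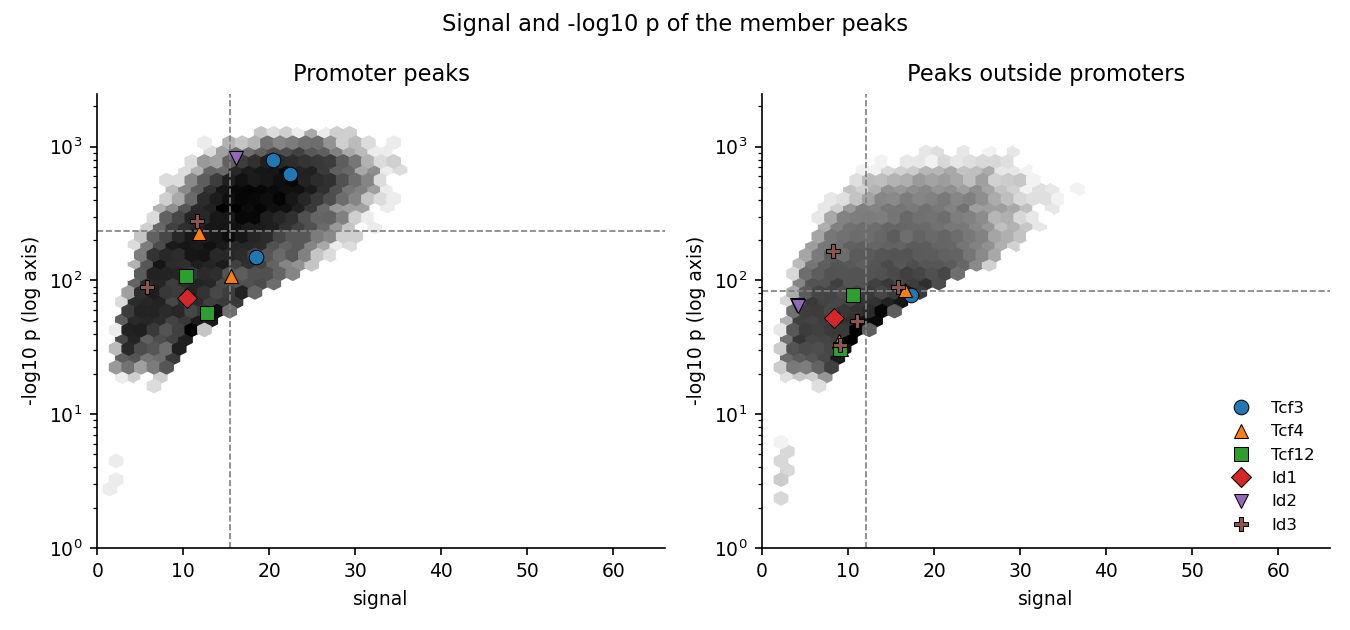
Signal (horizontal axis) against −log10 p (vertical log axis) of the 24 peaks of the 6 loci over all peaks of the stricter list (grey, darker where denser), for promoter peaks and for peaks outside promoters; dashed lines are the medians of all peaks of that class. The Id2 promoter and 2 of the 3 promoter peaks of the Tcf3 locus stand above both medians, as do the Tcf4 intron 6 peak and the Id3 peak at 16.8 kb outside promoters.

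Each peak also had a pair of −log10 p values that entered the authors' reproducibility ranking (IDR, the irreproducible discovery rate). The stricter list was thresholded by this ranking, so agreement of the pair is partly set by the filter and is no separate check. What the 2 inputs are is not given in the sources used here, and both came from 1 biological replicate. The larger input exceeded the smaller by a median of 1.20 times over the 24 peaks and by 1.58 times at most, against a median of 1.16 over all peaks. No peak of the 24 differed by more than 2 times, as 0.760% of all peaks did. The Id2 promoter had 409 and 436, and the Tcf3 promoter 383 and 262. The weakest by IDR was the Id3 peak at −19.9 kb, with a −log10 IDR of 1.44. All 24 peaks overlapped a peak of the longer list, a count not made here over all peaks. The 13 peaks found in the longer list only were all at Tcf4, Tcf12 and Id2.

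**Figure D4:**
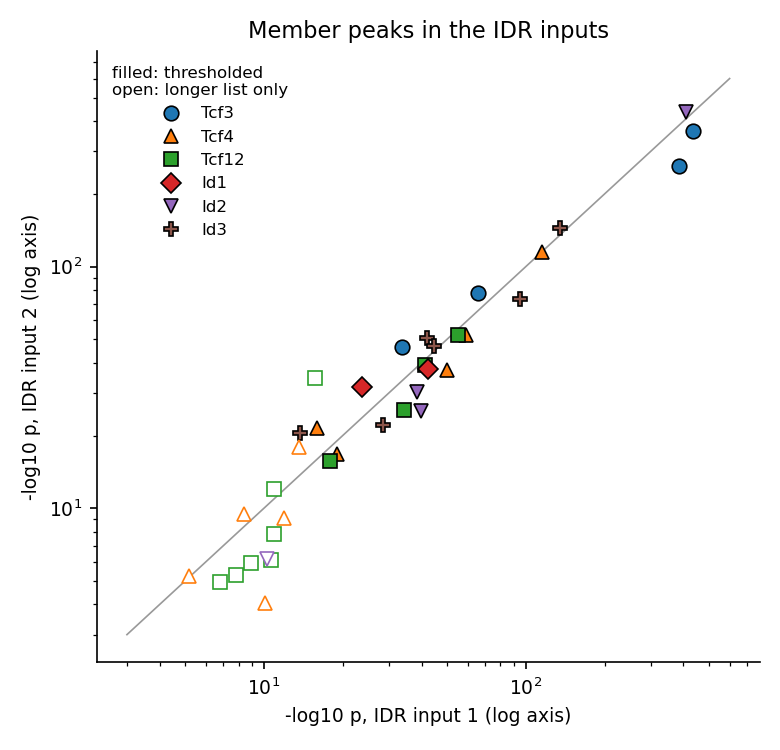
The −log10 p of each peak in IDR input 1 (horizontal log axis) against input 2 (vertical log axis), for 24 peaks of the stricter list (filled) and 13 of the longer list only (open); the line marks equal values. Filled points lie close to the line, and the open points are mostly at lower values. The stricter list was thresholded on these same inputs, so closeness to the line is partly set by that filter.

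By annotation, 11 of the 24 peaks were promoter peaks (45.8%, exact binomial 95% interval 25.6 to 67.2, against 39.6% of all peaks). These include the peaks at the promoters of Uqcr11 and Mbd3. Another 5 were intronic (20.8%, against 32.6%), 8 intergenic (33.3%, against 24.5%) and none exonic (0 of 24, against 3.33%). Each interval contained the share over all peaks. These intervals cover counting error only, and peaks of 1 gene are not independent.

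The general E-box was about as frequent at these summits as at others. In windows of 200 bp around the summit, 17 of 24 peaks held CANNTG (70.8%, interval 48.9 to 87.4), against 61.6% of all peaks and 68.8% of windows placed 1 kb to either side of the 24. In windows of 100 bp the shares were 50% and, over all peaks, 39.0%, and in windows of 400 bp 79.2% and 83.5%. CAGCTG was in 8 of 24 (33.3%, interval 15.6 to 55.3), against 12.4% of all peaks and 12.5% of the windows to either side. In windows of 100 bp it was in 20.8% (interval 7.13 to 42.2, against 6.31%), and in windows of 400 bp in 45.8% (against 21.6%). Of those 8 peaks, 7 were outside promoters, where 13.4% of all peaks held it. Of the same 8, 6 were in the Id loci: 1 at Id1, 2 at Id2 and 3 at Id3. CAGGTG was in 4 of 24 (16.7%, against 15.8%; in windows of 400 bp 41.7%, against 27.5%) and CAGATG in 2 of 24 (8.33%, against 13.2%). Motifs were searched on both strands, these 3 hexamers are also counted under the general E-box, and 16 motifs were counted, so a single share that stands apart is a description and not a site, a bound factor or a test.

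Of the other motifs, GGGCGG (KLF/SP) was in 12 of 24 windows (50%, against 26.5%). At promoters it was in 8 of 11, where 52.3% of all promoter peaks held it. Outside promoters it was in 4 of 13, against 9.68% of all such peaks. In windows of 100 bp it was in 20.8%, against 18.6% of all peaks, with the interval of 7.13 to 42.2 spanning that share. In windows of 400 bp it was in 54.2%, against 32.8%. The 13 peaks outside promoters had a median GC content of 53.3%, against 47.2% for all such peaks. The part of base composition in the GGGCGG and CAGCTG shares was not tested. The TCF/LEF letters NTCAAAG were in 6 (25%, against 13.7%), 3 of them at Tcf4. Windows of 100 bp gave 25% (interval 9.77 to 46.7, against 7.23%), and windows of 400 bp gave 37.5% (against 24.3%). At 200 bp, CNGGAAG (ETS) was in 8 (33.3%, against 34.6%), and TGNGGTT (RUNX) in 2 (against 17.1%). CCAAT (NFY) was in 5, against 24.6% of all peaks. These were 5 of the 11 promoter peaks, against 31.4% of all promoter peaks. Outside promoters it was in 0 of 13, against 20.1%. TGGAAA (NFAT) was in 2 windows (against 14.3%), and the AP-1 letters TGANTCA in 1 (against 9.62%). The GATA letters AGATAA were in 1 window (against 7.75%), as were the FOX letters GTAAACA (against 3.08%). The EGR letters GCGTGGGCG, held by 0.485% of all peaks, and the NF-kB core GGAANNTCC, held by 3.45%, were in none of the 24, which allows a share of up to 14.2%. No match in these windows says only that these letters were not there.

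**Figure D5:**
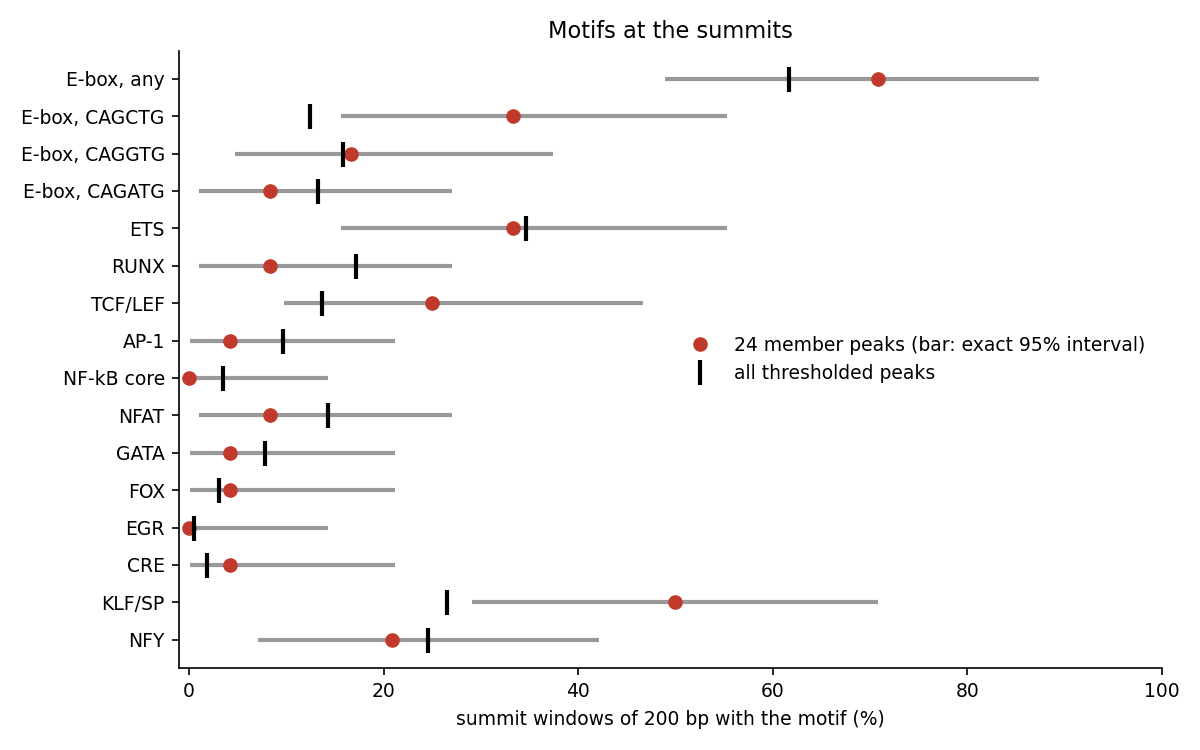
Share of 200 bp summit windows with each of 16 motifs (horizontal axis, percent) for the 24 peaks of the 6 loci (points, with exact 95% binomial intervals as bars) and for all peaks of the stricter list (ticks). The tick lies outside the bar for CAGCTG and for KLF/SP, and inside it for the other 14. In windows of 100 bp the share of all peaks lies inside the interval for KLF/SP and outside it for TCF/LEF.

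Genes around the network were read from 3 lists, in the same way. Of 16 partners and relatives of the E and Id proteins, 3 had a promoter peak (18.75%, interval 4.05 to 45.6): Ldb1, an adaptor that joins E protein complexes, with a signal of 11.1, Tal1 with 6.25 and Bhlhe40 with 5.91. This list was not limited to genes of the T lineage. Id4, the fourth Id gene, had no peak in its locus, and Tal2 and Lyl1, the next in list order, had peaks in their loci but none at the promoter. Of 16 known E protein targets, 10 had one (62.5%, interval 35.4 to 84.8), led by Cd3e, a T cell receptor chain, with a signal of 15.4, Notch1 with 12.7 and Cxcr5 with 9.95; Rag1, Rag2 and Ptcra, genes of T cell receptor assembly, had none. All 12 genes of the list of Id inducers had one, led by Smad1 with 16.8, Smad4 with 16.7 and Bmpr1a with 13.4, which carry BMP signals. Among protein-coding genes as a whole the share is 52.6%, and no share here was tested against it.

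The cell type label was read against marker genes. All 5 regulatory T cell markers and all 4 general T cell markers had a promoter peak, and 1 of 2 CD8 markers did (Cd8b1, with a signal of 10.7, while Cd8a had no peak). None of 3 B cell, 3 myeloid, 2 NK cell and 2 erythroid markers had one. The Cd8b1 signal was above those of the 5 regulatory T cell markers: Il2ra 9.67, Foxp3 9.50, Ikzf2 5.52, Ctla4 5.47 and Tnfrsf18 2.69. Of the general T cell markers, Lat with 22.3, Cd3g with 17.2 and Cd3e with 15.4 were above Cd8b1, and Cd4 with 4.56 was below it. The marker counts were not tested against the 52.6% share among protein-coding genes as a whole. In a bulk pool, a weak peak in all cells and a strong one in a few cannot be told apart.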

How the data were processed

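ATAC-seq peak lists of regulatory T cells on mm10 were used as deposited. The authors' 3 lists were called on the pool of 2 libraries: a stricter list thresholded by IDR, a longer pseudoreplicated list and a ranked list. Their columns are, per the file format, the signal (an enrichment value, as deposited by the authors), the deposited −log10 p, and a deposited score holding the −log10 IDR. Aligner, peak caller, their versions and any transposase shift: not given in the sources used here. No counts were used, so the depth behind a value is unknown.

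Peaks were assigned by summit to GENCODE M21 gene bodies with 20 kb either side. A promoter is 1 kb either side of a start site. Peaks were classed by their summit, while a gene had a promoter peak when any peak overlapped that window. Sequence came from GRCm38.p6, whose chromosome lengths matched, and a RefSeq start site was also read for 3 of 6 genes (Tcf3, Id2 and Id3). Shares carry exact (Clopper-Pearson) 95% intervals. The counting was tested on simulated data. Named peaks are the promoter peak nearest the 5′ end, the highest-signal peak outside promoters, peaks within 1 kb of a neighbour's start site and the lowest-signal peak of each locus. From each gene list the 3 highest promoter signals and up to 3 genes without a promoter peak are named. Members and lists were chosen with earlier results of these data known. Python 3.11.15, pandas 2.3.3, scipy 1.17.1 and pysam 0.24.0 were used.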

Additional observations from a re-analysis of the deposited data

How the results depend on the processing

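The 24 peaks became 37 in the pseudoreplicated list, 44 when every line was counted, 40 with 50 kb either side, 12 in gene bodies only, 8 at or above the median signal, 7 at or above the median −log10 p, and 74 between neighbouring coding genes, an alternative added after seeing the data. With the median signal required, 3 of the 6 genes kept a promoter peak (Tcf3, Tcf4 and Id2), as did 0 of the partners, 1 of the targets and 3 of the inducers, against 39.2% of all protein-coding genes under the same requirement; the pseudoreplicated list gave 6 partners. Peaks per 100 kb went from 2.71 to 4.18 in the pseudoreplicated list, and the median signal was 8.33 when every line was counted, which is percentile 53.9 among all lines, against 35.6 when each peak was counted once. The settings changed the list, the unit counted, the stretch or the threshold, and the cause of each shift was not tested. No paired analysis was possible because both libraries were pooled in every list, which also prevents leaving out a replicate. With 1 biological replicate and no counts, no difference between genes or peaks has an error between animals.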

Other observations

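Between Id2 and the next protein-coding gene upstream, Rnf144a, lie 1204 kb with 32 peaks of the stricter list, of which 15 fall within 200 kb of Id2 and 8 in the next 200 kb. Among 295 gaps of at least 1000 kb between protein-coding genes, the median held 1 peak, and 4, this gap included, held 32 or more. The highest signal was 26.4, with a −log10 p of 200.2, at chr12:25117706-25118474, 20.9 kb upstream of the 5′ end and just beyond the 20 kb limit. By class, 18 of the 32 were intergenic, 11 intronic, 2 exonic and 1 a promoter. This gap was looked at after its peak count was seen, and the peaks are not assigned to Id2 by any measurement here.

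A CTCF consensus was searched for after the windows had been read. It matched 1 of the 24 windows (4.17%, against 5.89% of all peaks), at the Tcf3 upstream peak. A form loosened at 1 position, so that sites seen in the Id2 and Id3 downstream windows would match, gave 3 of 24 (12.5%, against 7.91%). The second count was tuned to these windows and supports nothing.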
